A study of Danio rerio with 17 samples.

Results

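Matrix metalloproteinases (MMPs), ADAM and ADAMTS proteases and the tissue inhibitors of metalloproteinases (TIMPs) were followed in sorted cells of zebrafish eyes and eye tumours. The genes were chosen by name: every gene ID whose symbol begins with mmp, adam (adamts included) or timp, and whose counts sum to at least 50 over the 17 libraries. This gave 64 genes of 31701 IDs in the count table, of which 26237 carry a symbol. A further 2 IDs with such symbols, a second MMP14 ID (ENSDARG00000002235) and adam10b (ENSDARG00000015502), had 0 counts in all libraries. Of the 64 genes, 63 passed the filter on low counts and were tested, and mmp20b, with 89 counts in all, was not.

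MMPs are secreted or membrane-bound zinc proteases that cut collagens, laminins and other matrix proteins, and most are made as inactive precursors. ADAMs sit in the cell membrane and release the outer parts of growth factors, cytokines and receptors, whereas the secreted ADAMTS proteases trim proteoglycans, procollagens and fibrillin-rich matrix. TIMPs block the active site of many of these enzymes, and TIMP2 also takes part in a complex on the cell surface in which the membrane-anchored MMP14 activates MMP2. In mammalian tumours many of these genes are expressed by fibroblasts, macrophages and neutrophils as well as by the tumour cells.

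All fish carried the tg(sox10:RFP) reporter, a red fluorescent protein driven by regulatory sequence of sox10, a gene of neural crest and Schwann cells. Ocular tissue was dissociated with enzymes and sorted by fluorescence into an RFP-positive (sox10-high) and an RFP-negative (sox10-low) fraction. The 3 control sox10-low libraries came from fish of 4.6 to 5 months with the reporter alone. The 3 pre-cancerous sox10-low and the 3 pre-cancerous sox10-high libraries came from brca2hg5/hg5 fish of 4.5 to 4.7 months. The 4 cancer sox10-low and the 4 cancer sox10-high libraries came from brca2hg5/hg5 fish of 7.5 to 10.4 months, in a model of malignant peripheral nerve sheath tumour (MPNST). The low fraction is named microenvironment by the submitters, but it holds every cell without enough RFP. The high and low libraries of the pre-cancerous and cancer groups with the same replicate number were sorted from the same tissue, and no control sox10-high library was analysed. Replicates of a group carry different tissue codes, but whether these are separate animals is not given, and p-values measure the spread among these libraries.

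Polyadenylated RNA gave 58711787 to 87244522 counts per library and 20041 to 24179 detected genes. SOX10 followed the sort, at 1329 to 1597 CPM (counts scaled to a common library total) in the pre-cancerous sox10-high and 748 to 1389 in the cancer sox10-high libraries. In the sox10-low libraries it lay between 9.76 and 69.1, except in cancer sox10-low 4, at 418. Pre-cancerous sox10-low 3 also stood apart, with 1110.0 CPM of the lymphocyte gene RAG1 and 4467 CPM summed over 14 T and NK cell markers. Calls on members that ended without both of these libraries, and calls gained without them, are given beside the results where leaving out 1 of them does not already show it. The 8 cancer libraries came from older fish and differed from the other 9 in the share of even counts among values of 20 to 100 (51.2 to 53.9% against 60.8 to 77.8%), so tumour stage, age and this difference cannot be told apart. Comparisons of the sox10-high with the sox10-low fraction lie within each of these sets. Retina marker RNA of the sox10-low fraction was lower in cancer: 21 photoreceptor and retina markers summed to 29268 to 54891 CPM in control, 33974 to 68313 in pre-cancerous and 1012 to 1625 in cancer libraries. In bulk samples, fewer cells of a type and less RNA per cell cannot be told apart.

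The 25 members called between the fractions of pre-cancerous eyes were the most of the 7 comparisons, and 22 were called both between the fractions of tumours and from control to cancer sox10-low cells. In pre-cancerous eyes 5 members were higher and 20 lower in sox10-high than in sox10-low cells, against 9.28% of all genes tested that rose and 22.0% that fell (31.3% in either direction). The 5 were adam19a, MMP14, both MMP15 genes and a TIMP2 gene, and the 20 included MMP9, mmp13a, mmp13b, ADAMTS1 and a TIMP4 gene. In tumours 2 members (adam19a and 1 MMP15 gene) were higher and 20 lower in sox10-high cells, where 10.5% of all genes rose and 17.9% fell (28.4% in all). As shares of the 63 tested members, these are 7.94% and 31.7% before and 3.17% and 31.7% within tumours. The median log2 fold change of the members was -1.38 in pre-cancerous eyes and -0.98 in tumours, where that of all genes was -0.15 and 0.07.

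Within the sox10-low fraction, 12 members rose and 10 fell from control to cancer, among 17.2% of all genes that rose and 15.5% that fell (32.8% in all). The members' shares, 19% and 15.9%, lie near these. Those that rose included MMP14, MMP9, mmp13a, adam8a, adam19a, adam19b, ADAM9 and a TIMP2 gene, and those that fell included mmp30, mmp23bb, ADAMTS18 and a TIMP4 gene. From pre-cancerous to cancer 7 members rose and 6 fell (7.95% and 11.1% of all genes, 19.1% in all), which again is near the background. From control to pre-cancerous 0 members rose by edgeR and 1, mmp30, fell (0.777% and 0.296% of all genes, 1.07% in all). In that comparison 9 members had an unadjusted p under 0.05, and DESeq2 called 2 that rose and 2 that fell. In sox10-high cells 3 members rose and 3 fell from the pre-cancerous to the cancer stage (4.91% and 5.24% of all genes, 10.1% in all). The fraction difference itself changed with stage for 4 members, upward for mmp23bb (2.36% of all genes) and downward for MMP14, MMP2 and adam19a (1.04%, or 3.40% in all).

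**Figure D1:**
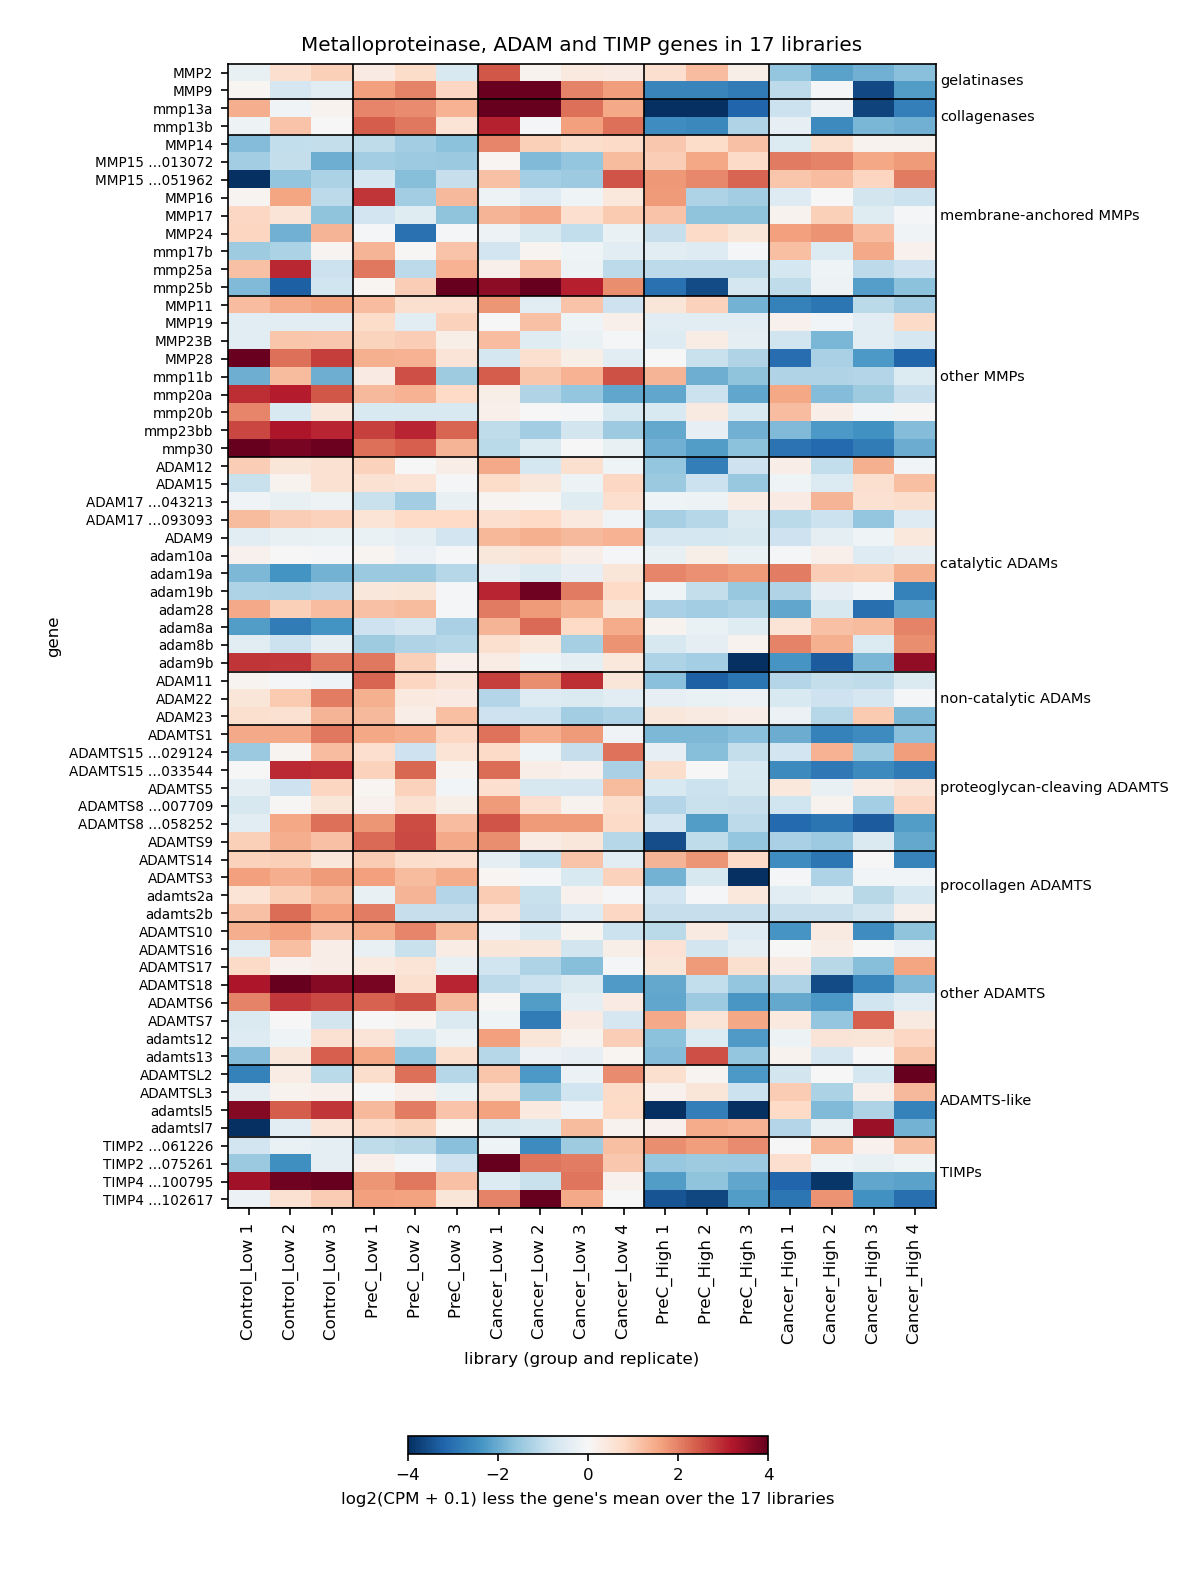
Expression of the 64 genes (vertical axis, grouped by role) in the 17 libraries (horizontal axis, grouped), as log2(CPM + 0.1) less each gene's mean over the libraries, with colours ending at -4 and 4 (Low and High, sox10 fractions; PreC, pre-cancerous). Columns of the sox10-high groups are low for many MMP and ADAMTS genes and high for adam19a and both MMP15 genes. In tumours MMP15 (ENSDARG00000051962) overlaps the sox10-low fraction. Single libraries such as cancer sox10-low 2 for TIMP4 (ENSDARG00000102617, 1214 CPM) stand out.

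MMP14 (ENSDARG00000008388), the membrane-anchored activator of MMP2, was high in the sox10-high cells of pre-cancerous eyes and in the sox10-low cells of tumours. Its level was 37.8, 62.6 and 64.0 CPM in the 3 control sox10-low libraries and 61.7, 48.0 and 39.7 in the pre-cancerous sox10-low libraries. It was 484, 242, 204 and 210.2 CPM in the 4 cancer sox10-low libraries. All 4 cancer sox10-low libraries lay above all 6 others of that fraction, which overlapped among themselves. MMP14 rose in cancer sox10-low cells by 2.38 ± 0.37 (log2 fold change ± SE, adjusted p = 0.000152) against control and by 2.52 ± 0.37 (adjusted p = 0.000179) against pre-cancerous.

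In sox10-high cells MMP14 stood at 265, 209 and 279 CPM before and at 84.8, 194, 138 and 138 CPM in tumours. The 2 stages did not overlap, but the difference did not pass the test (log2 fold change -0.86 ± 0.34, adjusted p = 0.120). Before tumours the high fraction exceeded the low fraction of the same tissue 4.28, 4.36 and 7.02-fold, a rise of 2.33 ± 0.38 on the log2 scale (adjusted p = 0.000272). In tumours the order was turned in 4 of 4 tissues, with the low fraction 5.71, 1.25, 1.48 and 1.53-fold above the high fraction (log2 fold change -1.04 ± 0.32, adjusted p = 0.0217). This last call ended with a block for the tissue (-0.97, adjusted p = 0.0799), without cancer sox10-low 1 (-0.66, adjusted p = 0.119) and without cancer sox10-high 1 (-0.87, adjusted p = 0.0665). It also ended with the compared groups alone (-1.07, adjusted p = 0.0659). The change of the fraction difference between the stages was -3.37 ± 0.49 (adjusted p = 0.00172), and it passed in each alternative run, between -3.58 and -2.99.

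MMP2 (ENSDARG00000017676), gelatinase A, which cuts denatured collagen and basement membrane collagen, fell in the sox10-high cells of tumours. Its level was 46.2, 90.7 and 109.6 CPM in control sox10-low, 71.5, 93.3 and 36.9 in pre-cancerous sox10-low and 319.6, 62.1, 73.8 and 70.2 in cancer sox10-low libraries. In sox10-high cells it was 90.9, 134 and 66.0 CPM before and 19.1, 12.8, 14.8 and 17.6 in tumours. The 4 cancer sox10-high libraries lay below every other library, and the other groups overlapped. The fall in sox10-high cells was -2.59 ± 0.53 (log2 fold change, adjusted p = 0.00406).

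Before tumours the fractions did not differ detectably for MMP2 (0.53 ± 0.55, adjusted p = 0.492), and in tumours the low fraction was 16.7, 4.84, 4.99 and 3.98-fold above the high fraction of its tissue (-3.03 ± 0.52, adjusted p = 0.000392). The change of the fraction difference was -3.56 ± 0.75 (adjusted p = 0.0154), with a range of -3.87 to -2.62 over the alternatives. Beside the high MMP2 value of cancer sox10-low 1, the sum of 12 fibroblast and pericyte markers was 9847 CPM there and 1438 to 2657 in the other 3 cancer sox10-low libraries. The part of these cells in the MMP2 level was not tested. Both MMP14 and MMP2 thus stood lower in the high relative to the low fraction in tumours than before.

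**Figure D2:**
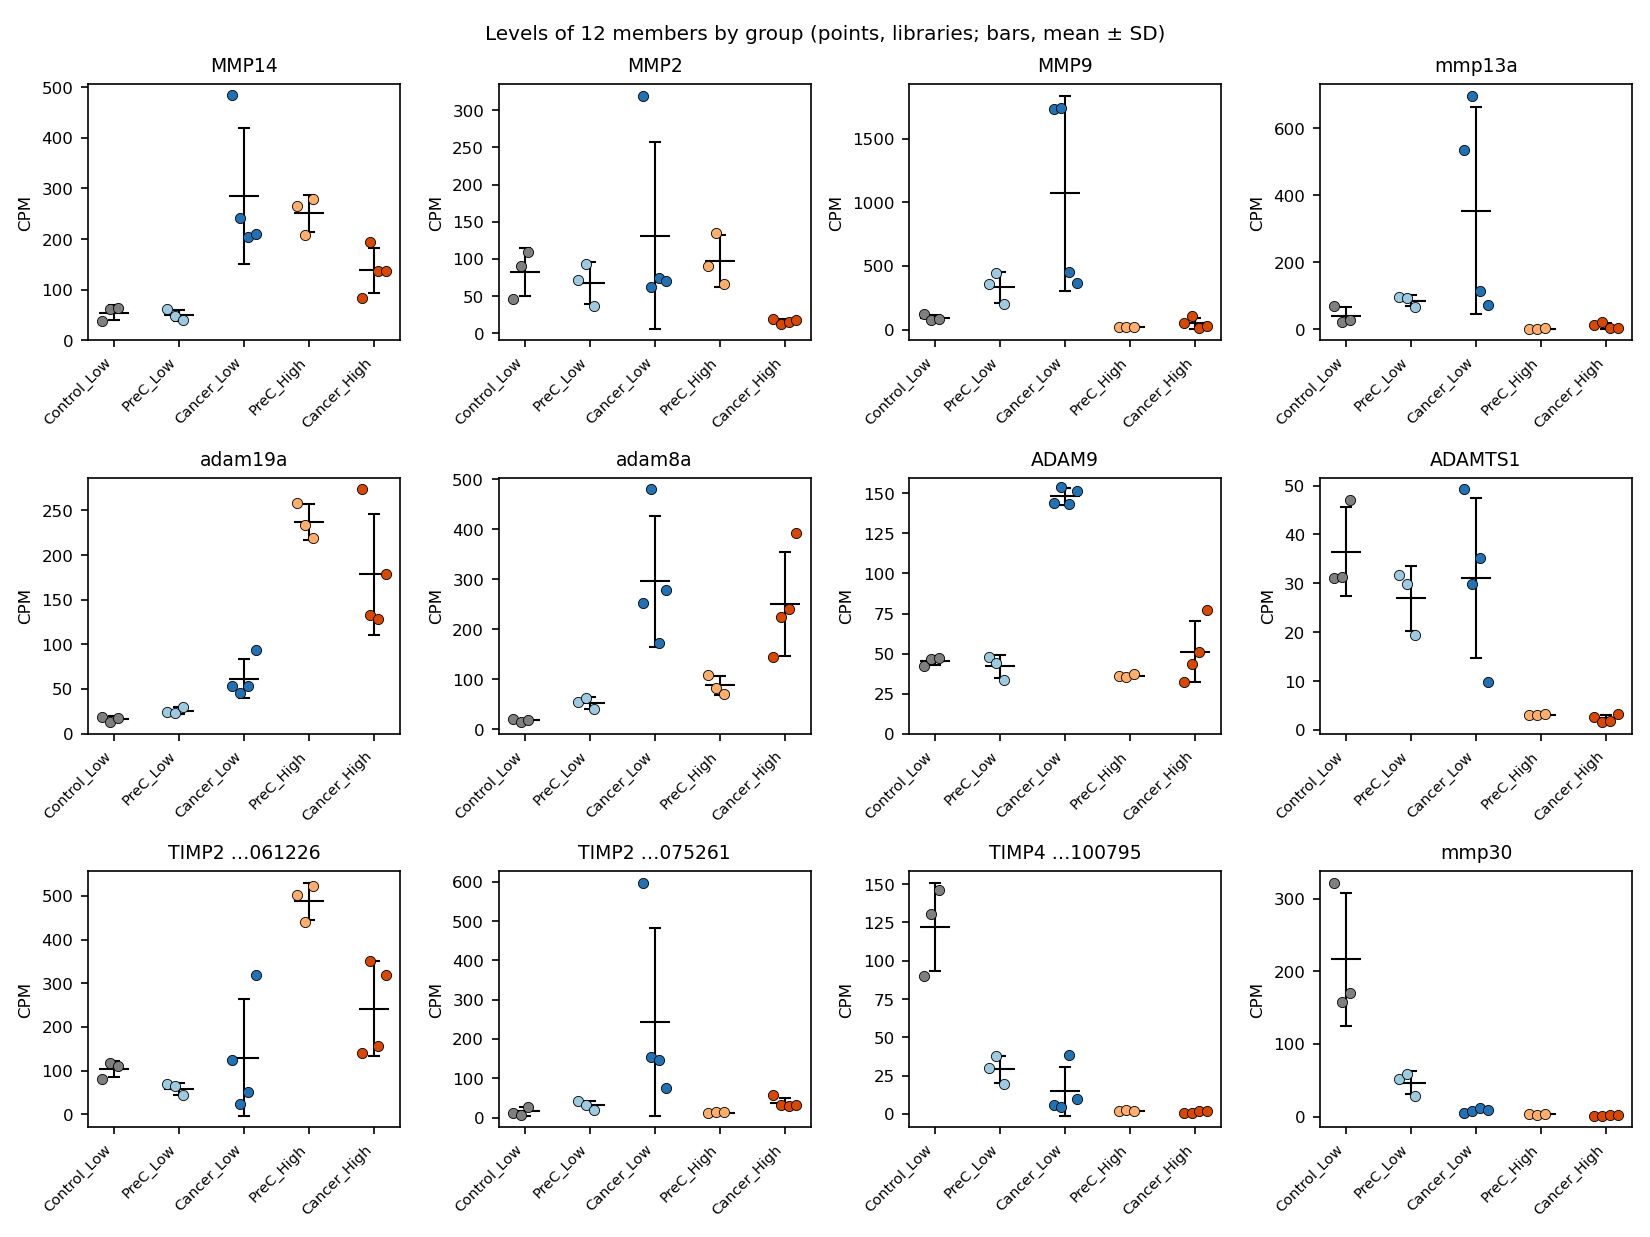
CPM (vertical axes, from 0) of 12 members in the 5 groups (horizontal axes), with 1 point for each library and bars for mean ± SD. MMP14 is high in the cancer sox10-low and pre-cancerous sox10-high groups, MMP2 is lowest in the cancer sox10-high group (12.8 to 19.1 CPM), and MMP9, mmp13a and ADAMTS1 are low in both sox10-high groups.

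MMP9 (ENSDARG00000042816), gelatinase B, a granule protease of mammalian neutrophils, had its highest levels in the sox10-low cells of tumours. Control sox10-low libraries held 120.0, 71.4 and 81.6 CPM, pre-cancerous sox10-low libraries 354, 444 and 202, and cancer sox10-low libraries 1732, 1738, 449 and 363. Sox10-high cells held 18.2, 18.1 and 16.2 CPM before tumours and 54.8, 107, 9.17 and 23.9 in tumours. Each control library lay below each pre-cancerous and each cancer library of the low fraction, while the pre-cancerous and cancer ranges overlapped. MMP9 rose from control to cancer by 3.56 ± 0.74 on the log2 scale (adjusted p = 0.00164). The steps from control to pre-cancerous (1.87 ± 0.71, adjusted p = 0.206) and from pre-cancerous to cancer (1.68 ± 0.68, adjusted p = 0.0947) did not pass. The first passed with the compared groups alone (1.87, adjusted p = 0.0167), and the second with DESeq2 (1.72, adjusted p = 0.0437), a number block (1.77, adjusted p = 0.0239) or without cancer sox10-low 4 (1.97, adjusted p = 0.0475). Within tissues the low fraction exceeded the high fraction 12.4 to 24.5-fold before tumours (log2 fold change of high against low -4.25 ± 0.79, adjusted p = 0.000736) and 15.2 to 49.0-fold in tumours (-4.46 ± 0.69, adjusted p = 0.000161).

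The collagenases mmp13a (ENSDARG00000012395) and mmp13b (ENSDARG00000100794), which cut fibrillar collagen, had the same order of fractions. For mmp13a the low fraction held 68.4, 22.5 and 27.4 CPM in control, 96.3, 92.1 and 64.9 in pre-cancerous and 533, 697, 114 and 70.6 in cancer libraries. The high fraction held 0.950, 1.18 and 2.67 CPM before and 13.5, 21.2, 1.84 and 3.62 in tumours. Every high library was thus below every low library. The step of mmp13a from pre-cancerous to cancer sox10-low cells (2.07 ± 0.84, adjusted p = 0.0962) passed with DESeq2 (2.11, adjusted p = 0.0332) and without cancer sox10-low 4 (2.41, adjusted p = 0.0435). Its difference between the stages in sox10-high cells (2.65 ± 0.87, adjusted p = 0.0619) passed with DESeq2 (2.57, adjusted p = 0.0120), without cancer sox10-high 3 or 4 (adjusted p = 0.0321 and 0.0464), and without cancer sox10-low 4 and pre-cancerous sox10-low 3 together (adjusted p = 0.0465). Fraction differences of mmp13a were -5.72 ± 1.03 before (adjusted p = 0.000579) and -5.14 ± 0.86 in tumours (adjusted p = 0.000344), 24.3 to 101-fold and 19.5 to 62.0-fold within tissues. Its rise from control to cancer sox10-low cells (3.16 ± 0.88, adjusted p = 0.0115) ended without control sox10-low 2 or 3 (2.89 and 2.94, adjusted p = 0.0547 and 0.0552). The paralog mmp13b fell in sox10-high against sox10-low cells by 3.96 ± 0.85 before tumours (adjusted p = 0.00216) and by 3.59 ± 0.72 in tumours (adjusted p = 0.00149).

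Leukocyte markers were also higher in sox10-low cells. From control to pre-cancerous sox10-low cells the neutrophil and macrophage sums overlapped, and the MMP9 values did not. The sum of 14 T and NK cell markers did not overlap there either, at 183 to 233 CPM in control and 756 to 4467 in pre-cancerous libraries. The sum of 7 neutrophil markers was 967 to 1442 CPM in control, 586 to 1159 in pre-cancerous and 2421, 4669, 1900 and 1059 in the 4 cancer sox10-low libraries, and 52.5 to 76.8 and 111 to 209.8 in sox10-high cells before and in tumours. Of these markers, 7 of 7 fell from the low to the high fraction at both stages, and 5 of 7 rose from control to cancer sox10-low cells. The sum of 20 macrophage and microglia marker IDs was 701 to 1086, 781 to 1395 and 1283 to 5452 CPM in the low groups and 89.98 to 158 and 203 to 357 in the high groups. Of 15 tested macrophage markers, 13 fell in the high fraction before tumours, 12 fell in tumours, and 11 rose from control to cancer sox10-low cells. Of the macrophage IDs, 4 of 6 MFAP4 IDs and lgals9l1 were at 0 in all 17 libraries. The part of leukocytes in the levels of MMP9, mmp13a and the other members higher in sox10-low cells was not tested.

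Among the other membrane-anchored MMPs, both MMP15 genes were higher in sox10-high cells before tumours, and 1 of them in tumours. MMP15 (ENSDARG00000013072), a relative of MMP14 with the same kind of membrane anchor, held 1.93, 1.84 and 1.77 CPM in pre-cancerous sox10-low and 10.4, 15.2 and 8.92 in pre-cancerous sox10-high libraries. In tumours it held 5.50, 1.44, 1.72 and 12.5 CPM in the low and 22.3, 20.6, 15.5 and 16.9 in the high fraction. The fractions overlapped at neither stage, and cancer sox10-low 4, the library with 418 CPM of SOX10, was the highest of its group. It rose in the high fraction by 2.64 ± 0.65 (adjusted p = 0.00550) before and 1.83 ± 0.54 (adjusted p = 0.0186) in tumours, and the latter call ended with the compared groups alone (1.84, adjusted p = 0.0591).

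The second MMP15 gene (ENSDARG00000051962) had 3.90, 1.90 and 3.28 CPM in pre-cancerous sox10-low and 21.4, 24.5 and 32.1 in pre-cancerous sox10-high libraries, without overlap (3.10 ± 1.14, adjusted p = 0.0465). That call ended without any single library of either group (2.86 to 3.33, adjusted p = 0.0672 to 0.137) and without pre-cancerous sox10-low 3 and cancer sox10-low 4 (adjusted p = 0.0590). It also ended without a filter (3.11, adjusted p = 0.0553). In tumours the high fraction held 13.8, 15.1, 11.5 and 26.9 CPM and overlapped the low fraction (0.26 ± 0.91, adjusted p = 0.866). Its rise from control to cancer sox10-low cells (3.19 ± 1.11, adjusted p = 0.0366) rested on 14.6, 2.44, 2.27 and 37.0 CPM, which overlapped the control values of 0, 2.04 and 2.57. Without cancer sox10-low 4 this was 2.06 (adjusted p = 0.127), and without cancer sox10-low 1 or any control library the call also ended (2.61 to 3.82, adjusted p = 0.0513 to 0.0795). The same call ended with the compared groups alone (3.18, adjusted p = 0.133) and with a number block (2.16, adjusted p = 0.161).

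The glycolipid-anchored MMP25 genes, whose human relative is known from neutrophils, moved the other way. The gene mmp25b (ENSDARG00000010556) held 2.77, 0.934 and 5.55 CPM in control, 10.2, 19.5 and 182 in pre-cancerous and 116, 201, 84.8 and 35.3 in cancer sox10-low libraries. The sox10-high libraries held 0.722 to 5.95 CPM before and 2.06 to 8.52 in tumours. The 182 CPM belong to pre-cancerous sox10-low 3, the library rich in RAG1. The control and cancer values did not overlap, and mmp25b rose between them by 5.15 ± 1.14 (adjusted p = 0.00248). From pre-cancerous to cancer sox10-low cells the difference was 0.63 (adjusted p = 0.684), or 3.16 (adjusted p = 0.0288) without pre-cancerous sox10-low 3 and cancer sox10-low 4. In the high fraction it fell by 4.76 ± 1.14 before tumours (adjusted p = 0.00465), or by 2.52 without pre-cancerous sox10-low 3, and by 4.57 ± 0.97 in tumours (adjusted p = 0.00241). Its paralog mmp25a (ENSDARG00000077290) was at 0 in the 3 pre-cancerous sox10-high libraries and at 0.787, 0 and 0.442 CPM in the pre-cancerous sox10-low libraries. With the high group set to a floor of 3 counts in all, the group means differed 33.5-fold, a size that rests on this floor. Pre-cancerous sox10-low 2 was also at 0, so the groups overlapped. The difference was called (adjusted p = 0.0320), but the call ended with the tissue block (adjusted p = 0.05004). It also ended without any of the 3 high libraries and without pre-cancerous sox10-low 1 (adjusted p = 0.0705 to 0.0804).

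Among the other MMPs, 4 of 8 tested fell from control to cancer sox10-low cells and 0 rose (15.5% and 17.2% of all genes tested). The steepest was mmp30 (ENSDARG00000045887), at 322, 157 and 170.4 CPM in control, 51.4, 59 and 28.5 in pre-cancerous and 5.25, 7.66, 11.3 and 9.15 in cancer sox10-low libraries. The 3 groups did not overlap. Between control and pre-cancerous cells mmp30 fell by 2.23 ± 0.41 (adjusted p = 0.0180), the sole member called there. That call ended without control sox10-low 1 (-1.82, adjusted p = 0.106) or pre-cancerous sox10-low 3 (-1.97, adjusted p = 0.0773), and without the latter and cancer sox10-low 4 together (adjusted p = 0.0570).

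From pre-cancerous to cancer mmp30 fell by 2.47 ± 0.37 (adjusted p = 0.000213), and from control to cancer by 4.70 ± 0.40 (adjusted p = 8.42e-07). Sox10-high libraries held 2.30 to 3.50 CPM before and 1.21 to 2.74 in tumours, and mmp30 fell against the low fraction at both stages (-4.0 ± 0.44, adjusted p = 1.30e-05, and -2.29 ± 0.36, adjusted p = 0.000181). The change of this difference with stage (1.71, adjusted p = 0.0839) passed without pre-cancerous sox10-low 3 and cancer sox10-low 4 (2.02, adjusted p = 0.0424).

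The MMP23-type gene mmp23bb (ENSDARG00000009825) held 7.80, 11.4 and 10.2 CPM in control and 8.07, 10.1 and 6.07 in pre-cancerous sox10-low libraries. Its level was 0.513, 0.368, 0.642 and 0.350 CPM in cancer sox10-low libraries, and it fell by 4.38 ± 0.59 against control (adjusted p = 4.93e-05) and by 4.10 ± 0.59 against pre-cancerous (adjusted p = 0.000134), with no overlap. In sox10-high cells it was 0.199, 0.891 and 0.222 CPM before and 0.132 to 0.271 in tumours. The fraction difference was -4.20 ± 0.66 before tumours (adjusted p = 0.000205), and its change with stage was 3.01 ± 0.80 (adjusted p = 0.0486). The latter call ended in 17 of 21 alternatives, among them the tissue block (3.14, adjusted p = 0.131) and the loss of any 1 of 11 of the 14 libraries (2.67 to 3.21, adjusted p = 0.0513 to 0.109).

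MMP28 (ENSDARG00000059029), epilysin, known from human skin, fell from control (16.5, 4.78 and 7.13 CPM) to cancer sox10-low cells (0.550, 1.57, 1.14 and 0.687 CPM), with a log2 fold change of -3.26 ± 0.82 (adjusted p = 0.00624). These values did not overlap. Within tumours MMP28 was lower in the high than in the low fraction (log2 fold change -2.98 ± 0.81, adjusted p = 0.0114). Low counts stood behind the enamelysin relative mmp20a (ENSDARG00000089887), at 2.28 to 3.64 CPM in control and 0 to 0.400 in cancer sox10-low libraries (-4.50 ± 1.56, adjusted p = 0.0356), and behind MMP11 (ENSDARG00000026325), stromelysin 3. MMP11 held 0.313 to 2.43 CPM in the low and 0 to 0.250 in the high fraction of tumours (-3.39 ± 1.13, adjusted p = 0.0333). The mmp20a call ended without any single library of the comparison other than cancer sox10-low 1 (-4.68 to -4.09, adjusted p = 0.0554 to 0.0871). That of MMP11 ended with the tissue block (adjusted p = 0.0744) and without any of cancer sox10-high 1 or 2 and cancer sox10-low 1 or 3 (-3.24 to -2.77, adjusted p = 0.0570 to 0.106). The MMP11 call also ended with the compared groups alone (-3.43, adjusted p = 0.0592). The retina and epithelial marker sums fell over the same groups. Of 21 retina markers 20 fell from control to cancer sox10-low cells. The 11 epithelial markers summed to 32429 to 44385 CPM in control and 4948 to 10323 in cancer, but of the 10 tested 5 fell and 4 rose. Their part in the falls of mmp30, mmp23bb, MMP28 and mmp20a was not tested.

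Of 12 catalytic ADAMs, 4 rose and 0 fell from control to cancer sox10-low cells (17.2% and 15.5% of all genes tested). These were adam8a, adam19a, adam19b and ADAM9, and each also rose from pre-cancerous to cancer. The leukocyte protease adam8a (ENSDARG00000001452; its role is known from mammals) held 21.2, 14.3 and 18.8 CPM in control, 55.5, 62.7 and 40.4 in pre-cancerous and 253, 479.8, 173 and 278 in cancer sox10-low libraries. The 3 groups did not overlap. It rose by 4.03 ± 0.42 against control (adjusted p = 4.51e-06) and by 2.48 ± 0.39 against pre-cancerous (adjusted p = 0.000283). The step from control to pre-cancerous was 1.55 ± 0.39 (adjusted p = 0.0631), and it passed with DESeq2 (1.44, adjusted p = 0.0174) and with the compared groups alone (1.55, adjusted p = 0.0184). In sox10-high cells adam8a was 109, 83.3 and 70.9 CPM before and 144, 225, 239.7 and 393 in tumours, without overlap (1.51 ± 0.37, adjusted p = 0.0142). This rise ended without pre-cancerous sox10-high 2 (1.48, adjusted p = 0.0534) or 3 (1.38, adjusted p = 0.0704). It also ended with the compared groups alone (1.42, adjusted p = 0.0506). The neutrophil sum of the high fraction was 52.5 to 76.8 CPM before and 111 to 209.8 in tumours. Before tumours adam8a lay higher in the high (70.9 to 109 CPM) than in the low fraction (40.4 to 62.7), a difference that was not called. The neutrophil sum had the other order, with 586 to 1159 CPM in the low fraction. The part of neutrophils in the adam8a level was not tested.

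Its paralog adam8b (ENSDARG00000057644) held 13.3, 15.7 and 16.3 CPM in pre-cancerous and 56.3, 48.0, 14.2 and 126 in cancer sox10-low libraries. It rose by 2.01 ± 0.60 (adjusted p = 0.0253), although cancer sox10-low 3 lay within the pre-cancerous range, but the call ended without cancer sox10-low 4 (1.39, adjusted p = 0.0793) or any pre-cancerous sox10-low library (1.93 to 2.07, adjusted p = 0.0533 to 0.0948). The call also ended with the compared groups alone (2.07, adjusted p = 0.0572) and with a number block (1.40, adjusted p = 0.0899). Between the stages in sox10-high cells the adam8b difference was 1.71 ± 0.59 (adjusted p = 0.0745), or 1.70 (adjusted p = 0.0467) without pre-cancerous sox10-low 3 and cancer sox10-low 4. It also passed with DESeq2 (1.64, adjusted p = 0.0344) and without cancer sox10-high 3 (2.03, adjusted p = 0.0219). With the tissue block adam8b was also called higher in the high fraction, by 1.15 before tumours (adjusted p = 0.0130) and 0.81 in tumours (adjusted p = 0.0348), where the fit without it gave 1.01 ± 0.60 (adjusted p = 0.216) and 0.70 ± 0.52 (adjusted p = 0.333). The difference before tumours also passed with the compared groups alone (1.12, adjusted p = 0.0233).

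The paralogs adam19a (ENSDARG00000059693) and adam19b (ENSDARG00000067545) lay in opposite fractions of tumours. ADAM19 is known in mouse for cutting neuregulin, a growth signal of Schwann cells. For adam19a the low fraction held 19.1, 12.6 and 17.8 CPM in control, 23.8, 23.5 and 29.9 in pre-cancerous and 53.4, 46.0, 52.9 and 93.5 in cancer libraries. The high fraction held 259, 234 and 219 CPM before and 274, 133, 128 and 179 in tumours. Every high library lay above every low library, and the 3 low groups did not overlap.

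In sox10-high cells adam19a rose 7.32 to 10.9-fold over the low fraction of the same tissue before tumours (3.20 ± 0.35, adjusted p = 1.27e-05) and 1.92 to 5.13-fold in tumours (1.54 ± 0.29, adjusted p = 0.000844). The change of this difference, -1.67 ± 0.43 (adjusted p = 0.0432), ended in 11 of 21 alternatives, 10 of which left out 1 of the 14 libraries (-1.73 to -1.54, adjusted p = 0.0574 to 0.105). Within the low fraction adam19a rose by 1.90 ± 0.32 from control (adjusted p = 0.000328) and by 1.26 ± 0.31 from pre-cancerous to cancer (adjusted p = 0.00964). The highest cancer sox10-low value, 93.5 CPM, belongs to the library with 418 CPM of SOX10.

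For adam19b the low fraction held 3.98 to 4.28 CPM in control, 9.19 to 13.7 in pre-cancerous and 82.4, 145, 41.9 and 17 in cancer libraries. The high fraction held 3.34 to 8.73 CPM before and 1.40 to 9.05 in tumours. The low groups did not overlap. It rose by 4.11 ± 0.72 from control (adjusted p = 0.000417) and by 2.57 ± 0.66 from pre-cancerous (adjusted p = 0.0118) to cancer sox10-low cells, and was lower in the high fraction of tumours by a log2 fold change of -3.67 ± 0.62 (adjusted p = 0.000380).

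ADAM9 (ENSDARG00000010070), a sheddase of many membrane proteins, was highest in the sox10-low cells of tumours. It held 42.4, 46.7 and 47.5 CPM in control, 48.1, 44.2 and 33.7 in pre-cancerous and 144, 154, 143 and 151 in cancer sox10-low libraries. The high fraction held 36.1, 35.7 and 37.3 CPM before and 32.6, 43.7, 51.2 and 77.1 in tumours. The 4 cancer sox10-low libraries thus stood above all other libraries. It rose by 1.70 ± 0.27 from control (adjusted p = 0.000173) and by 1.81 ± 0.27 from pre-cancerous (adjusted p = 0.000186), and was lower in the high fraction of tumours (-1.53 ± 0.24, adjusted p = 0.000187).

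The 2 genes for ADAM17, the protease that releases TNF and ligands of the EGF receptor, differed between fractions in different ways. ADAM17 (ENSDARG00000093093) held 17.9, 21.6 and 21.6 CPM in pre-cancerous sox10-low and 4.81, 5.55 and 8.2 in pre-cancerous sox10-high libraries (-1.72 ± 0.35, adjusted p = 0.00141). In tumours it held 19.7, 21.2, 16 and 11 CPM in the low and 5.76, 6.67, 4.14 and 8.50 in the high fraction (-1.44 ± 0.30, adjusted p = 0.00196). The fractions did not overlap at either stage. ADAM17 (ENSDARG00000043213) held 25.0 to 53.7 CPM in pre-cancerous sox10-low and 58.2 to 81.9 in pre-cancerous sox10-high libraries, with a difference of 0.80 ± 0.34 (adjusted p = 0.0845). It passed in 7 of 13 alternatives. Among them were the tissue block (1.03, adjusted p = 0.0256), DESeq2 (0.87, adjusted p = 0.0337), the compared groups alone (0.94, adjusted p = 0.0457) and the fit without pre-cancerous sox10-low 3 (1.13, adjusted p = 0.0255). In tumours it held 47.5 to 105 CPM in the low and 83.2 to 171 in the high fraction (0.67 ± 0.30, adjusted p = 0.103). Without cancer sox10-low 4 this was 0.90 (adjusted p = 0.0289). From pre-cancerous to cancer sox10-low cells the difference was 0.94 ± 0.33 (adjusted p = 0.0541), and it passed in 6 of 14 alternatives. These were DESeq2 (1.01, adjusted p = 0.0108), RLE size factors (adjusted p = 0.0305) and at least 1 CPM required in 3 libraries (adjusted p = 0.0271). It also passed without pre-cancerous sox10-low 3 (1.27, adjusted p = 0.0182), without cancer sox10-low 3 (adjusted p = 0.0345) and without pre-cancerous sox10-low 3 and cancer sox10-low 4 together (1.03, adjusted p = 0.0343).

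ADAM10, the main sheddase of Notch receptors, is present as adam10a (ENSDARG00000053468), at 106 to 222 CPM over all 17 libraries, and passed the test in 0 of 7 comparisons. The gene adam28 (ENSDARG00000035514), whose human relative is known from lymphocytes, held 18.9 to 48.6 CPM in the low and 7.55 to 8.34 in the high fraction before tumours (-2.23 ± 0.54, adjusted p = 0.00476). In tumours it held 28.4 to 85 CPM in the low and 2.39 to 13 in the high fraction (-3.23 ± 0.48, adjusted p = 0.000116), again without overlap. ADAM15 (ENSDARG00000089213) held 8.09 to 13.1 CPM in the low and 2.91 to 4.67 in the high fraction before tumours (-1.68 ± 0.50, adjusted p = 0.0179). It rose in the high fraction from that stage to 5.79 to 13.4 CPM in 3 tumours and 19.995 CPM in the remaining one (1.73 ± 0.48, adjusted p = 0.0295). The first call ended without pre-cancerous sox10-high 1 or 3 or pre-cancerous sox10-low 1 (-1.57 to -1.56, adjusted p = 0.0538 to 0.0642), the second without pre-cancerous sox10-high 1 or 3 or cancer sox10-high 3 or 4 (1.34 to 1.66, adjusted p = 0.0561 to 0.109). The second also ended with the compared groups alone (1.65, adjusted p = 0.0861) and with a number block (1.44, adjusted p = 0.0718).

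The 3 ADAMs without protease activity (ADAM11, ADAM22 and ADAM23) bind LGI proteins at synapses in mammals. From control to cancer sox10-low cells ADAM22 (ENSDARG00000060532) fell from 1.91, 2.92 and 5.83 CPM to 0.550, 0.920, 0.864 and 0.965 (-2.11 ± 0.57, adjusted p = 0.00982). ADAM23 (ENSDARG00000062323) fell from 5.50, 5.36 and 9.12 CPM to 1.94, 1.87, 1.28 and 1.42 (-2.03 ± 0.58, adjusted p = 0.0127). Neither pair of groups overlapped, and both calls ended without control sox10-low 3 (-1.54, adjusted p = 0.0857, and -1.74, adjusted p = 0.0624). From pre-cancerous to cancer ADAM23 fell by 2.12 ± 0.58 (adjusted p = 0.0163), a call that ended without pre-cancerous sox10-low 1 (-1.93, adjusted p = 0.0650) and without pre-cancerous sox10-low 3 and cancer sox10-low 4 (-1.95, adjusted p = 0.0631). ADAM11 (ENSDARG00000079204) went the other way, from 0.865 to 1.06 CPM up to 7.06, 3.85, 8.35 and 1.42 (2.45 ± 0.86, adjusted p = 0.0376), a call that ended without any control library or cancer sox10-low 1 or 3 (2.12 to 2.54, adjusted p = 0.0798 to 0.106). ADAM11 was lower in the high fraction before (-4.83 ± 1.0, adjusted p = 0.00171) and in tumours (-3.45 ± 0.80, adjusted p = 0.00447). The retina sum given above fell beside ADAM22 and ADAM23, and its part was not tested.

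Of the 7 proteoglycan-cleaving ADAMTS genes, 3 were lower in the high fraction before tumours and 3 in tumours. Of all genes tested, 22.0% and 17.9% fell in these comparisons. ADAMTS1 (ENSDARG00000103519), which cuts versican and aggrecan, held 31.7, 29.8 and 19.4 CPM in pre-cancerous sox10-low and 3.07, 3.04 and 3.34 in pre-cancerous sox10-high libraries. In tumours it held 49.3, 29.9, 35.2 and 9.74 CPM in the low and 2.64, 1.60, 1.81 and 3.30 in the high fraction. Every high library lay below every low library. The differences were -3.10 ± 0.48 (adjusted p = 0.000176) and -3.73 ± 0.43 (adjusted p = 1.01e-05).

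ADAMTS8 (ENSDARG00000058252) was likewise lower in the high fraction, at 0.241 to 0.839 CPM against 3.66 to 9.72 before tumours and 0.0588 to 0.241 against 2.62 to 8.94 in tumours (-3.42 ± 0.80, adjusted p = 0.00410, and -5.44 ± 0.77, adjusted p = 7.32e-05). ADAMTS9 (ENSDARG00000077778) was lower before tumours (0 to 0.469 against 3.21 to 7.11 CPM, -4.37 ± 1.17, adjusted p = 0.00949). ADAMTS15 (ENSDARG00000033544) fell within sox10-high cells from 0.500 to 1.40 CPM before to 0.0277 to 0.0588 in tumours (-4.35 ± 1.0, adjusted p = 0.00948), and was lower there than in the low fraction of tumours (0.277 to 4.19 CPM, -5.16 ± 1.0, adjusted p = 0.00119). None of these group pairs overlapped. The second genes named ADAMTS8 and ADAMTS15, and ADAMTS5, passed in 0 comparisons. The same markers of leukocytes and fibroblasts that were low in the high fraction (11 of 12 fibroblast and pericyte markers fell at both stages) stand beside these falls, and their part was not tested.

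Among the 8 other ADAMTS genes, 3 fell from control to cancer sox10-low cells, where 15.5% of all genes tested fell. The same 3 were lower in the high fraction before tumours, where 22.0% of all genes fell. ADAMTS18 (ENSDARG00000001999), linked to eye development in mouse, held 15.8, 29.3 and 20.9 CPM in control, 23.4, 2.56 and 14 in pre-cancerous and 0.725, 0.821, 1.04 and 0.253 in cancer sox10-low libraries. All cancer libraries lay below all others of the low fraction. It fell by 4.95 ± 0.82 from control (adjusted p = 0.000259) and by 4.22 ± 0.79 from pre-cancerous (adjusted p = 0.00133). Over both stages the high fraction held 0.0416 to 0.746 CPM.

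The fibrillin-associated ADAMTS6 (ENSDARG00000041982) and ADAMTS10 (ENSDARG00000075188) followed. ADAMTS6 held 9.35 to 16.7 CPM in control, 5.80 to 14 in pre-cancerous and 0.411 to 2.92 in cancer sox10-low libraries, and 0.375 to 1.63 in sox10-high libraries. It fell by 2.88 ± 0.64 from control to cancer sox10-low cells (adjusted p = 0.00261) and by 2.51 ± 0.63 from pre-cancerous (adjusted p = 0.0102), without overlap. The change of its fraction difference with stage (3.32, adjusted p = 0.0542) passed without pre-cancerous sox10-low 3 and cancer sox10-low 4 (3.92, adjusted p = 0.0292). ADAMTS10 held 12.1 to 17.2, 13.3 to 21.2 and 2.93 to 5.85 CPM in the low groups (-1.80 ± 0.60, adjusted p = 0.0303, from control, and -1.98 ± 0.61, adjusted p = 0.0300, from pre-cancerous). The cancer values overlapped neither the control nor the pre-cancerous values. Both ADAMTS10 calls nevertheless ended without pre-cancerous sox10-low 3 and cancer sox10-low 4 (adjusted p = 0.0706 and 0.0671) and when single libraries were left out. These were cancer sox10-low 1, 2 or 4 and control sox10-low 1 or 2 for the first (-1.84 to -1.66, adjusted p = 0.0547 to 0.0849), and cancer sox10-low 1, 2 or 4 and pre-cancerous sox10-low 1 or 2 for the second (-2.03 to -1.77, adjusted p = 0.0599 to 0.103). The lower level of ADAMTS10 in the high fraction before tumours (-1.92 ± 0.67, adjusted p = 0.0375) ended with the tissue block (adjusted p = 0.0592) and without pre-cancerous sox10-high 1 or 3 or pre-cancerous sox10-low 1 or 2 (-1.96 to -1.64, adjusted p = 0.0671 to 0.126).

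Of the 4 procollagen-trimming ADAMTS genes, ADAMTS3 was lower in the high fraction before tumours, ADAMTS14 fell in sox10-high cells, and adamts2a and adamts2b passed in 0 comparisons. ADAMTS3 (ENSDARG00000060127), which also acts on VEGF-C in mammals, held 14.1, 10.9 and 12.7 CPM in pre-cancerous sox10-low and 1.12, 2.82 and 0 in pre-cancerous sox10-high libraries (-3.26 ± 1.0, adjusted p = 0.0203, or -3.15 and 0.0648 without pre-cancerous sox10-high 1). ADAMTS14 (ENSDARG00000078494) held 5.43, 7.33 and 3.61 CPM in sox10-high cells before and 0.292, 0.194, 2.1 and 0.241 in tumours (-2.95 ± 0.79, adjusted p = 0.0239). Neither pair of groups overlapped. With the tissue block ADAMTS14 was also called lower in the high than in the low fraction of tumours (-2.14, adjusted p = 0.0146), which overlapped and did not pass without it (-1.63, adjusted p = 0.104). Of the 4 ADAMTS-like genes, which lack the protease domain, adamtsl5 (ENSDARG00000052118) was called. It held 4.46, 7.54 and 3.94 CPM in pre-cancerous sox10-low libraries and 0, 0.168 and 0 in pre-cancerous sox10-high libraries (-6.51 ± 1.35, adjusted p = 0.00170). The sizes of this fold and of the next rest on the 1 high library with counts, without which the group is at 0 and no fold is given. Without any other single library they were -6.69 to -5.92 and 2.90 to 4.60. In sox10-high cells of tumours it rose to 3.10, 0.444, 0.676 and 0.181 CPM (4.24 ± 1.21, adjusted p = 0.0331). The ADAMTS14 call ended without pre-cancerous sox10-high 2 or cancer sox10-high 1, 2 or 4 (-2.69 to -2.63, adjusted p = 0.0555 to 0.0675), and the rise of adamtsl5 without pre-cancerous sox10-high 1 or 3 or cancer sox10-high 1 (2.90 to 3.70, adjusted p = 0.0981 to 0.101). Both calls also ended with the compared groups alone (-3.03, adjusted p = 0.0770, for ADAMTS14 and 4.18, adjusted p = 0.197, for adamtsl5).

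The inhibitors did not move together. TIMP2 (ENSDARG00000061226) held 81.7, 116 and 109.5 CPM in control, 68.4, 65.0 and 43.3 in pre-cancerous and 123, 24.6, 51.6 and 319 in cancer sox10-low libraries. The high fraction held 502, 441 and 522 CPM before and 141, 350.0, 157 and 319 in tumours. Before tumours the high fraction lay 6.78 to 12-fold above the low fraction of the same tissue (3.05 ± 0.68, adjusted p = 0.00276). In tumours the fractions overlapped, and the difference of 0.90 ± 0.55 did not pass (adjusted p = 0.234). The overlap came from cancer sox10-low 4, the library with SOX10 at 418 CPM, and without it the difference was 1.86 (adjusted p = 0.00497).

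The second TIMP2 gene (ENSDARG00000075261) was highest in the low fraction of tumours. Control sox10-low libraries held 12.6, 6.34 and 27.3 CPM, pre-cancerous ones 40.8, 33.0 and 19.7, and cancer ones 598, 155, 147 and 74.2. Sox10-high libraries held 12.4, 12.9 and 12.9 CPM before and 56.5, 31.0, 28.5 and 31.5 in tumours. Cancer sox10-low libraries lay above all others. TIMP2 of this ID rose by 3.98 ± 0.68 from control (adjusted p = 0.000324) and by 2.97 ± 0.64 from pre-cancerous (adjusted p = 0.00369) to cancer sox10-low cells. It was lower in the high fraction of tumours (-2.72 ± 0.57, adjusted p = 0.00197). Cancer sox10-low 1, with the highest value, was also the highest for MMP14 (484 CPM), MMP2 (319.6 CPM) and the fibroblast and pericyte sum (9847 CPM).

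TIMP4 (ENSDARG00000100795) was highest in the low fraction of control eyes, at 89.9, 130.2 and 146 CPM, beside 29.7, 37.6 and 19.8 in pre-cancerous and 5.94, 4.59, 38.3 and 9.85 in cancer sox10-low libraries. Control values lay above all others, and cancer sox10-low 3 lay above the pre-cancerous range. It fell by 3.06 ± 0.63 from control to cancer (adjusted p = 0.00137), and the step from control to pre-cancerous was -2.07 ± 0.67 (adjusted p = 0.135), which passed with DESeq2 (-2.17, adjusted p = 0.0300) and with the compared groups alone (adjusted p = 0.00811). In the high fraction it held 1.77 to 2.76 CPM before and 0.486 to 1.98 in tumours, lower than the low fraction at both stages (-3.74 ± 0.72, adjusted p = 0.001002, and -3.49 ± 0.62, adjusted p = 0.000568).

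The other TIMP4 gene (ENSDARG00000102617) turned on 1 tissue. It held 6.78 to 16.1 CPM in control, 11.2 to 25.1 in pre-cancerous and 31.6, 1214, 23.2 and 7.93 in cancer sox10-low libraries. In sox10-high cells of tumours it held 0.987, 27.7, 1.40 and 0.904 CPM, so the second tissue was the highest in both fractions. Its rise from control to cancer sox10-low cells (4.77 ± 1.67, adjusted p = 0.0373) was 0.84 (adjusted p = 0.585) without cancer sox10-low 2, and ended without any control library too (4.49 to 5.07, adjusted p = 0.0939 to 0.117). That call also ended with the compared groups alone (adjusted p = 0.0717), a number block (adjusted p = 0.0657) or no filter (adjusted p = 0.0603). The difference between fractions in tumours (-5.37 ± 1.52, adjusted p = 0.0144) was -1.43 (adjusted p = 0.324) without cancer sox10-low 2. It also did not pass with the compared groups alone (-5.37, adjusted p = 0.0662). Before tumours the high fraction held 0.554 to 1.61 CPM, below each low library (-4.44 ± 1.69, adjusted p = 0.0545), and this passed with the tissue block (-4.37, adjusted p = 0.00131) and without pre-cancerous sox10-low 3 and cancer sox10-low 4 (-4.70, adjusted p = 0.0384). The same difference passed with the compared groups alone (-4.35, adjusted p = 0.00149).

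**Figure D3:**
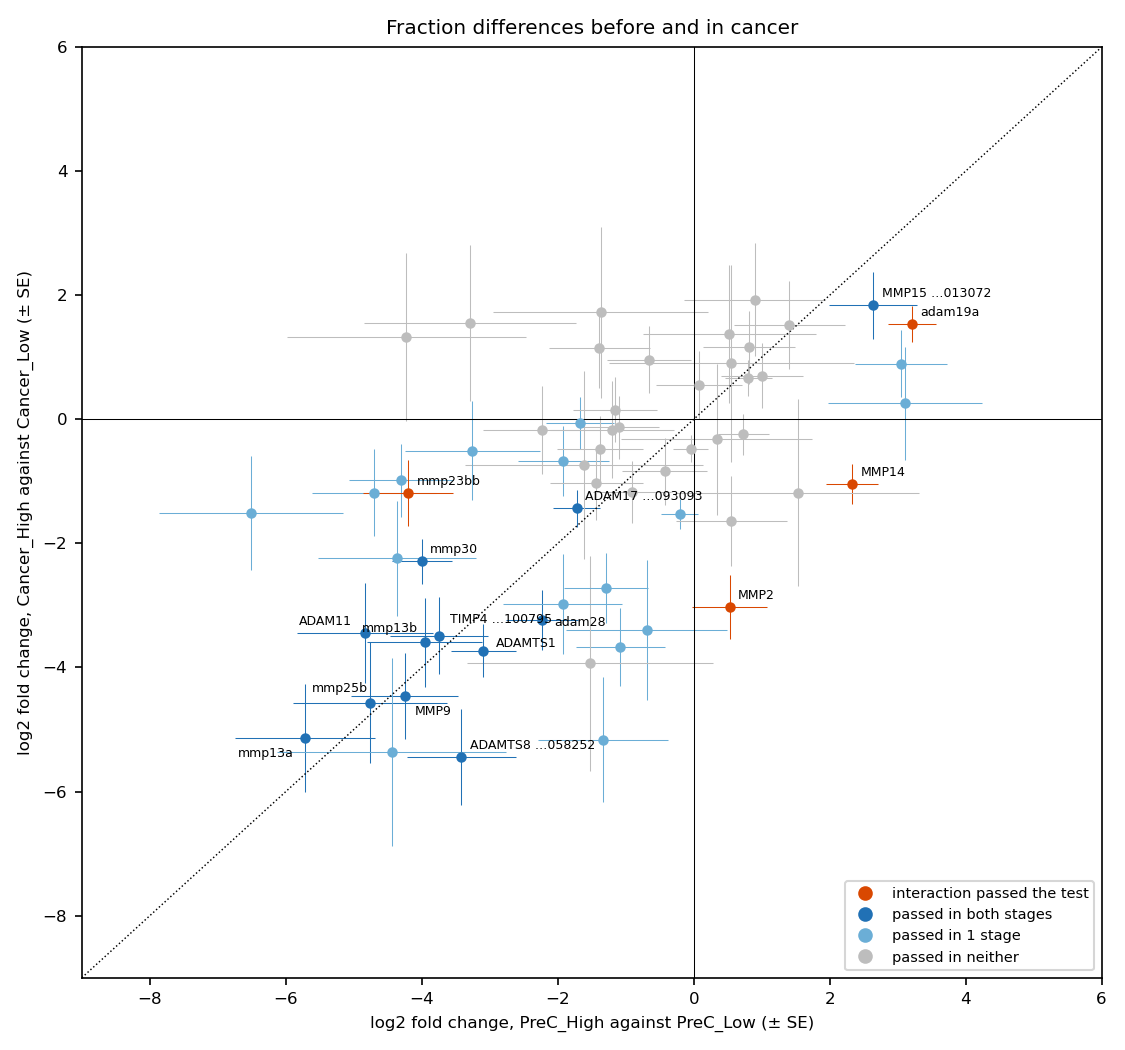
Log2 fold change of the sox10-high against the sox10-low fraction before tumours (horizontal axis) and in tumours (vertical axis) for the tested members, with bars of ± SE and colours for the tests passed. Genes with a group at 0 (mmp25a, MMP19 and adamts2b) are not drawn; MMP14 lies at 2.33 and -1.04, MMP2 at 0.53 and -3.03, and adam19a at 3.20 and 1.54.

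The fraction differences before and in tumours share no library, so their calls can be set side by side. Of the 20 members lower in the high fraction before tumours and the 20 in tumours, 11 were the same, which is 55% of each list. They were MMP9, mmp13a, mmp13b, mmp25b, mmp30, adam28, ADAM17 (ENSDARG00000093093), ADAM11, ADAMTS1, ADAMTS8 (ENSDARG00000058252) and TIMP4 (ENSDARG00000100795). Over all genes tested 2934 fell at both stages, 57.2% of those before and 70.3% of those in tumours. Of the members that rose, 5 before and 2 in tumours, 2 were shared (adam19a and MMP15 ENSDARG00000013072), 40% and 100% of the lists, beside 42.6% and 37.8% over all genes. Taken by tissue without a test, 34 of the 63 tested members were lower in the high fraction of each of the 3 pre-cancerous tissues and 12 higher, 54% and 19%, where 34.1% and 25% of all genes tested were. In the 4 tumours 29 were lower and 8 higher in each, 46% and 12.7%, beside 27.3% and 25.4% of all genes.

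**Figure D4:**
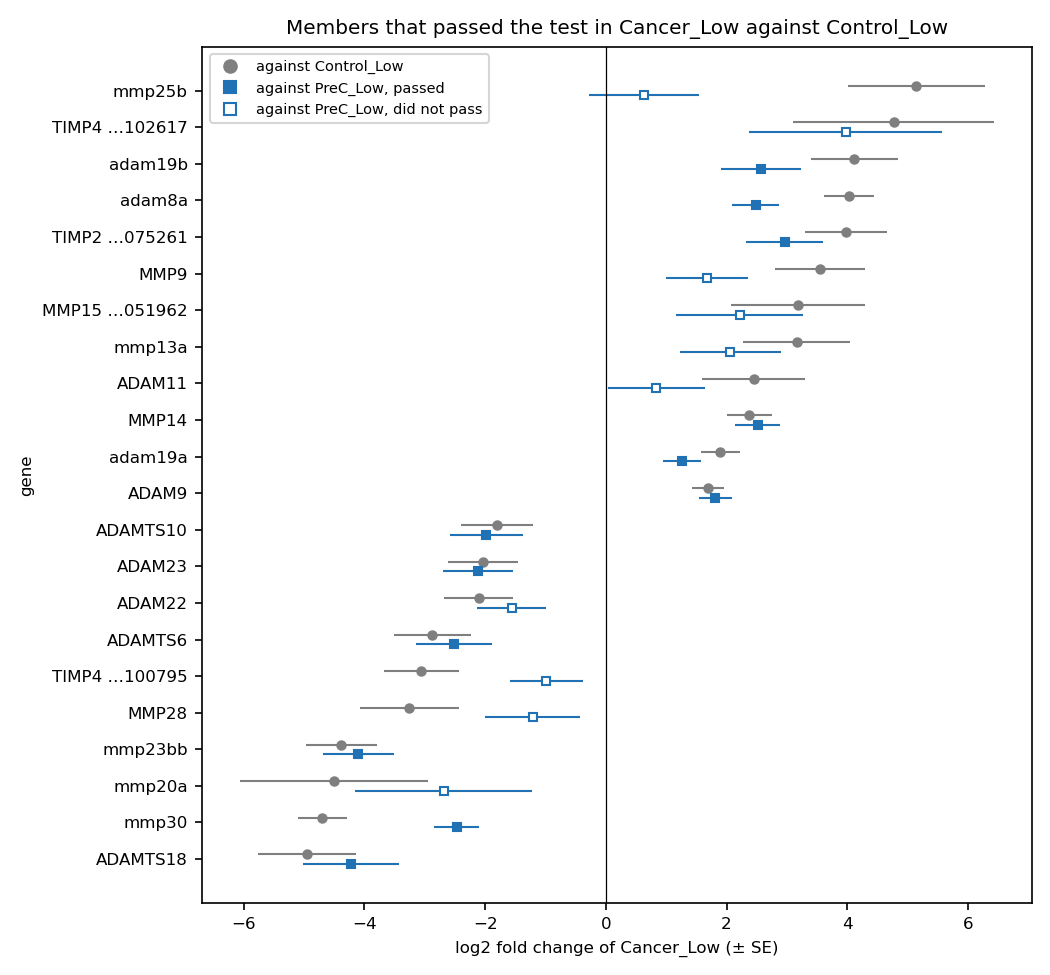
Log2 fold change ± SE (horizontal axis) of the 22 members called between cancer and control sox10-low cells (vertical axis), with the change against pre-cancerous sox10-low cells beside it; filled points passed the test. The 2 comparisons share the cancer libraries; values against control run from -4.95 for ADAMTS18 to 5.15 for mmp25b.

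The summed level of the 64 genes was 1306 to 1451 CPM in control, 1192 to 1549 in pre-cancerous and 2068 to 5708 in cancer sox10-low libraries. In sox10-high cells it was 1612 to 1642 CPM before and 1190.4 to 1775 in tumours. The cancer sox10-low libraries thus lay above all others in the sum, which adds inhibitors to proteases. MMP9 alone made up 15.55 to 33.47% of it there, and TIMP4 (ENSDARG00000102617) 21.26% in cancer sox10-low 2. In the pre-cancerous sox10-low libraries the share of MMP9 was 23.59, 28.69 and 16.91%. All of these are shares of counts without correction for gene length, so they are not shares of transcripts. The median log2 fold change of the members from control to cancer sox10-low cells was 0.28.

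Between 54 and 64 of the genes were detected in a library, and 24 of the 63 tested passed in no comparison. Besides adam10a and ADAM17 (ENSDARG00000043213), these were MMP16, MMP17, mmp17b, MMP24, mmp11b, MMP19, MMP23B, adam9b, ADAM12, ADAMTS5, ADAMTS7, adamts12, adamts13, ADAMTS16, ADAMTS17, adamts2a, adamts2b, ADAMTSL2, ADAMTSL3, adamtsl7 and the second genes named ADAMTS8 and ADAMTS15. Of these, ADAMTS7 was called higher in the high fraction before tumours with the tissue block (1.55, adjusted p = 0.0411; 1.40 and 0.199 without it). There adamts2b, at 0 in that fraction, was called lower without pre-cancerous sox10-low 3 and cancer sox10-low 4 (adjusted p = 0.0453; 0.0620 with them). Another 9 members were called in 1 comparison, 13 in 2, 13 in 3, 1 in 4 and 3 (adam19a, MMP14 and mmp30) in 5. The matching counts over all genes tested were not taken, and several comparisons share libraries. Some members are neighbours in the RefSeq annotation of a later zebrafish assembly than the one named by the submitters. There mmp13a and mmp30 have 1 protein-coding gene between them, although mmp13a rose and mmp30 fell from control to cancer sox10-low cells, and adamts1 and adamts5 are adjacent. Reads shared by paralogs, such as the TIMP4 genes or mmp20a and mmp20b, may have been split or dropped in counting. Their sequences were not compared.

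Lists of genes around the proteases were counted in the same fits, where 17.2% of all genes rose and 15.5% fell from control to cancer sox10-low cells, 9.28% and 22.0% in the high fraction before tumours, and 10.5% and 17.9% in tumours. The shares were 7.95% and 11.1% from pre-cancerous to cancer sox10-low cells. Several list counts lie near these shares. In plasminogen activation, the serine protease cascade that activates several MMPs, 4 of 12 tested genes rose and 1 fell from control to cancer sox10-low cells. The activator plaua rose by 3.72, and the inhibitor SERPINE2 by 3.33 on the log2 scale. Of the same list 2 rose and 6 fell in the high fraction before tumours, and 0 rose and 7 fell in tumours. The change of the fraction difference passed for SERPINE2 (-2.62, adjusted p = 0.0144). Among 29 cathepsins and other matrix-degrading enzymes, 14 rose and 3 fell from control to cancer sox10-low cells, among them the heparanase HPSE (4.01), the hyaluronidase HYAL1 (3.04) and the cathepsin CTSC (2.93), which rose. In the high fraction 6 rose and 12 fell before tumours, and 0 rose and 14 fell in tumours.

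Genes for the activation and control of metalloproteinases (23 tested) had 2 that rose and 6 that fell from control to cancer sox10-low cells. RHBDF1 (ENSDARG00000036541), an iRhom that carries ADAM17 to the cell surface, rose by 1.96 ± 0.27 (adjusted p = 6.19e-05), with means of 50.4 CPM in control, 49.4 in pre-cancerous and 196 in cancer sox10-low libraries. Its means were 158 and 238 CPM in sox10-high cells before and in tumours. TSPAN14, a tetraspanin partner of ADAM10, also rose (1.58), whereas the related tspan5a (-2.76) and the proprotein convertase PCSK6 (-2.90) fell. In the high fraction 2 of 23 rose and 7 fell before tumours, and 4 rose and 7 fell in tumours, or 6 and 7 without pre-cancerous sox10-low 3 and cancer sox10-low 4.

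Of 39 ligands and receptors known to be shed by ADAMs, 11 rose and 14 fell from control to cancer sox10-low cells, and 4 rose and 19 fell in the high fraction before tumours. In tumours 1 rose and 18 fell, or 9 and 18 without pre-cancerous sox10-low 3 and cancer sox10-low 4. A list of lectican proteoglycans, basement membrane and other matrix genes holds substrates, but also the synthase HAS2. Of its 31 tested genes, 5 rose and 4 fell from control to cancer sox10-low cells, or 3 and 5 without those libraries. In the high fraction 2 rose and 9 fell before tumours, and 0 rose and 12 fell in tumours, or 3 and 11 without those libraries. A list of 22 genes held AP-1 and NF-kB, transcription factors that act on MMP promoters, and their inducer il1b. It also held NF-kB inhibitors and the ETS and RUNX factors ETS1, ets2, ETV4, RUNX2 and runx2b. Of these 22 genes, 10 rose and 1 fell from control to cancer sox10-low cells. From pre-cancerous to cancer 6 rose and 1 fell, or 9 and 1 without those libraries. In the high fraction 5 rose and 3 fell before tumours, or 4 and 4 without those libraries, and 1 rose and 10 fell in tumours.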

How the data were processed

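Polyadenylated RNA of sorted ocular cells was sequenced from paired ends with a directional kit, per the labels. The deposited table holds raw read counts per Ensembl gene for 17 libraries; FastQC, STAR and HTSeq, with DESeq2 and the build danRer10, are listed in the submitters' processing notes. Their versions, the annotation release and the strandedness of counting are not stated there. Part of the genotype is not reported here. Symbols came from a table of gene IDs. Without gene lengths, levels are not compared between genes, and shares of the summed level are shares of counts. The members and lists were chosen with earlier results of these data known.

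Counts were fitted with edgeR 4.0.16 (R 4.3.3), with TMM scaling, filterByExpr (minimum count 10, minimum total 15; 23299 genes kept) and robust quasi-likelihood tests over the 5 groups together, so all groups share 1 estimate of spread. The 7 comparisons are 6 between groups and the change of the fraction difference with stage. P-values were adjusted by Benjamini-Hochberg over all genes tested, and a gene was called below 0.05. CPM use TMM-scaled totals. Fold changes are log2 with their SE. Members called in any comparison are named, and uncalled ones where they bear on a called gene. Alternatives were RLE size factors, other filters, DESeq2 1.42.0, the compared groups alone, replicate blocks and leaving out libraries. The fit was tested on simulated counts.

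Descriptions in the labels give the high and low libraries of 1 pre-cancerous or cancer replicate the same tissue code. Correlations of the deviations from the group means were 0.306, 0.312, 0.331 and 0.426 for the 4 cancer tissues and 0.0229, -0.00862 and 0.0750 for the pre-cancerous ones. Across other groups, equal numbers belong to different tissues.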

Additional observations from a re-analysis of the deposited data

Results flagged for a closer look

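In groups of 4 libraries, a library was picked out where its gap to the nearest other, divided by the group's range, exceeded Dixon's critical value. For normally distributed values chance alone picks out about 1 in 20 groups. The rule was used on untransformed CPM, for which this rate was not checked, so the count is not set against it. Among the 128 groups of the 64 genes, 20 were picked out, 8 in cancer sox10-low and 12 in cancer sox10-high cells, 19 by a high and 1 by a low library. The values are CPM.

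Cancer sox10-low 1 stood above its group for MMP14 (484), MMP2 (319.6), MMP23B (11.1) and TIMP2 ENSDARG00000075261 (598). In sox10-high cells of the same tissue TIMP2 ENSDARG00000075261 was also the highest (56.5), as were adamtsl5 (3.10) and mmp20a (1.13). Cancer sox10-low 2 stood out for TIMP4 ENSDARG00000102617 (1214) and cancer sox10-high 2 for the same gene (27.7) and for ADAMTS10 (7.05), while its ADAMTS3 value was low (1.82). The tissue of replicate 3 held the highest ADAMTS14 in both fractions (4.68 in the low, 2.1 in the high), the highest TIMP4 ENSDARG00000100795 in the low fraction (38.3) and the highest adamtsl7 in the high fraction (43.7). That of replicate 4 was highest for adam19a in the low fraction (93.5) and for adam9b (29.3), ADAMTSL2 (14.8), mmp11b (0.166) and adamts2b (0.120) in the high fraction. TIMP2 ENSDARG00000075261, ADAMTS14 and TIMP4 ENSDARG00000102617 were thus picked out in both fractions of 1 tissue.

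The change of the fraction difference from the pre-cancerous to the cancer stage passed edgeR's test for 4 members. It was -3.37 for MMP14, -3.56 for MMP2 and -1.67 for adam19a, where the sox10-high fraction stood lower against the sox10-low fraction in tumours than before. It was 3.01 for mmp23bb, whose sox10-low level was closer to its sox10-high level in tumours than before, but stayed above it.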

How the results depend on the processing

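Of 93 calls on single members, 66 passed in every alternative run, 27 ended in at least 1, and 0 reversed. Leaving out 1 library at a time gave 0 to 1 members that rose and 0 to 1 that fell from control to pre-cancerous sox10-low cells, 8 to 13 and 7 to 10 from control to cancer, and 6 to 9 and 4 to 7 from pre-cancerous to cancer. For the high against the low fraction it gave 4 to 5 and 17 to 21 before tumours and 2 to 4 and 18 to 21 in tumours, for the cancer against the pre-cancerous sox10-high cells 0 to 4 and 2 to 4, and for the change of the fraction difference 0 to 3 upward and 2 to 4 downward. With DESeq2, 2 members rose and 2 fell from control to pre-cancerous, 11 rose from pre-cancerous to cancer sox10-low cells, 9 rose and 6 fell in sox10-high cells, and the fraction difference changed for 5 upward and 6 downward. With the compared groups alone, 3 rose and 2 fell from control to pre-cancerous, 8 were higher in the high fraction before tumours, and 1 rose in sox10-high cells. With pre-cancerous sox10-low 3 and cancer sox10-low 4 left out, 0 fell from control to pre-cancerous, 4 were higher in the high fraction of tumours, 5 rose in sox10-high cells and 2 changed their fraction difference upward. That last count was 0 with RLE factors, without a filter, with at least 1 CPM required in 3 libraries, with the compared groups alone or the tissue block. With the tissue replicate block, 8 members were higher and 19 lower in the high fraction before tumours, and 3 and 19 in tumours; the calls it changed are given beside the results, and it changed no other call on a member in these comparisons or in the change of the fraction difference. Between groups that share a replicate number but no tissue, the block gave 0 and 1, 10 and 12, 7 and 7, and 2 and 4 members that rose and fell (correlations -0.0489 to 0.0763). Why counts moved between settings was not tested. Groups of 3 or 4 libraries limit the precision, and genes under about 1 CPM rest on few counts.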
